A study of Rattus norvegicus with 4 samples.

Results

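Several microRNAs (miRNAs) tied to fat, sugar and energy metabolism were followed in hepatocytes and endothelial cells of the rat liver: miR-33, the miR-378 pair (miR-378a and miR-378b) and miR-802. Every probe whose spot name was the stem rno-miR-33, rno-miR-378a, rno-miR-378b or rno-miR-802, alone or with an arm, was taken, which gave 7 of the 761 miRNA probes on the array: both arms of miR-33, miR-378a and miR-802, and the single probe for miR-378b. The samples were primary hepatocytes, the parenchymal cells of the liver, and primary liver sinusoidal endothelial cells (LSECs), the fenestrated lining of its capillaries. Both were isolated from 10-week-old male Sprague-Dawley rats that had received no treatment, with 2 samples and 2 single-colour arrays per cell type. The labels do not say whether the replicates are different animals, so a p-value here measures only how these samples scatter, which may be technical. A bulk sample also cannot tell fewer cells of a type apart from less RNA per cell.

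A miRNA is cut from a hairpin precursor whose 5p and 3p arms can each be loaded into the silencing complex, which then pairs with messenger RNAs mainly through the seed, bases 2 to 8 of the miRNA. miR-33 is made together with SREBP-2, the transcription factor that switches on cholesterol synthesis, and represses the cholesterol exporter Abca1 as well as genes of fatty acid oxidation. miR-378a is made together with PGC-1beta, a coactivator of mitochondrial and lipogenic genes, and in mice it restrains oxidative metabolism. miR-802 is enriched in liver, and in mice its excess in obesity impairs glucose handling.

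The genes of these miRNAs were placed on the GRCr8 rat assembly by RefSeq, and 4 of the 7 probes matched a RefSeq mature sequence. The sequences are shown because the arms behave differently below and because a shared seed can mean shared targets. Capitals mark the seed.
miR-33-5p: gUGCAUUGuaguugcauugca
miR-33-3p: cAAUGUUUccacagugcauca
miR-378a-5p: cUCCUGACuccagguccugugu
miR-378a-3p: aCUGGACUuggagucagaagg
The 4 seeds differ from each other. None of the other array miRNAs with a RefSeq mature sequence shared any of them (0 for each arm, among 685 of 761 probe names matched). Over the shorter stretch of bases 2 to 7, 1 array miRNA matched miR-378a-3p and none matched the other arms. miR-378b, miR-802-5p and miR-802-3p are named here without a mature sequence, so their seeds were not compared.

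Mir33 lies at chr7:115593952-115594020 on the plus strand, within the span of Srebf2, the SREBP-2 gene (chr7:115542774-115600945). In its hairpin the capitals mark the 5p arm first and then the 3p arm.
Mir33: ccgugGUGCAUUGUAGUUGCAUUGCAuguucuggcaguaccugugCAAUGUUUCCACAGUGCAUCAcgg
Mir802 lies at chr11:46112362-46112457 on the plus strand, within the span of a long non-coding RNA gene, LOC134480977. Its hairpin is printed because it carries the clearest difference between the cell types, and no arm is marked.
Mir802: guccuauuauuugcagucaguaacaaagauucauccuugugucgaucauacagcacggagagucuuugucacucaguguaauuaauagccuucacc
Mir378 lies at chr18:57128922-57128986 on the minus strand, within the span of Ppargc1b, the PGC-1beta gene (chr18:57029264-57131466). Mir378b lies apart from it, at chr5:10729798-10729881, within the span of Ncoa2, which encodes a nuclear receptor coactivator (chr5:10618712-10852776).

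Signals are given in 3 forms: as intensity units above the array's blank spots, as the authors' scaled values (the same signal times 1 factor per array that sets the median at 25), and as normalized log2 values (50 units added, then quantile normalization). A normalized difference is hepatocyte minus LSEC ± standard error, and it was called where limma's adjusted p, over all miRNAs tested, was under 0.05. Spike scaling sets the arrays by their 16 spike control spots in place of quantile normalization.

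The arrays separated by the labelled cell types. The hepatocyte miRNA miR-122-5p read 51468 and 59303 in hepatocytes, against 168.7 and 109.9 in LSECs, in the authors' scaled values, and the endothelial miR-126a-3p read 46.5 and 81.3 in hepatocytes, against 67716 and 63106 in LSECs. The other arms, miR-122-3p and miR-126a-5p, differed the same way, by 5.89 ± 0.09 and -5.98 ± 0.07 (log2, hepatocyte minus LSEC ± standard error). A spot counted as detected above the mean plus 2 SD of the array's blank spots, which held for 563 and 596 miRNAs on the hepatocyte arrays, against 680 and 660 on the LSEC arrays. Marker miRNAs of other liver cells were also read. The summed scaled level of 6 leukocyte and Kupffer cell markers was 106.7 and 91.5 in hepatocytes, against 3352 and 3843 in LSECs, with 4 and 5 of the 6 detected in hepatocytes (miR-155-5p in neither sample), against 6 and 6 in LSECs. That of 5 stellate and mesenchymal markers was 106.1 and 131.2 in hepatocytes, against 2507 and 1966 in LSECs, with 4 and 4 of the 5 detected in hepatocytes (miR-199a-3p in neither sample), against 5 and 5 in LSECs. That of 5 cholangiocyte and epithelial markers was 146.1 and 189.7 in hepatocytes, against 43.4 and 53.6 in LSECs, with 5 and 4 detected in hepatocytes, against 4 and 5 in LSECs. That of 2 erythroid markers was 96.9 and 76.5 in hepatocytes, against 41 and 24.9 in LSECs, with 1 and 2 detected in hepatocytes, against 2 and 1 in LSECs. Their part in the members' levels was not tested.

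miR-802-5p was the member that most sharply divided the cell types. Its spot stood 112.4 and 171.3 intensity units above the blank mean on the hepatocyte arrays, and 1.18 and 2.31 units above it on the LSEC arrays. Both hepatocyte arrays thus held a clear signal, more than 65 blank SDs above the blanks (65.6 and 65.2), while neither LSEC array reached the detection limit (1.02 and 1.86 blank SDs). In the authors' scaled values it read 270.7 and 267.6 in hepatocytes and was not listed in either LSEC sample. Because the LSEC level has only an upper bound, the fold is a lower bound as well. On the quantile-normalized log2 scale, with the LSEC arrays set at their lowest detected signal or the spot's own, whichever was higher, miR-802-5p was at least 5.6-fold higher in hepatocytes (normalized means 8.34 in hepatocytes, against 5.84 in LSECs). In limma, fitted across all miRNAs, the adjusted p was 2.58e-05. A miRNA was tested if both arrays of a cell type detected it, and miR-802-5p met this through hepatocytes alone. It therefore had to differ, and its p and calls are not separate support. The quantile-normalized scale has 50 units added to each signal, which shrinks folds of dim spots. In the authors' values, which have no such offset, miR-802-5p was at least 75.8-fold higher in hepatocytes when LSECs were set at the lowest value listed there (3.6 and 3.5). That bound holds on the authors' scale only, since their factor for each array enters it, and none was computed relative to the spikes. The hepatocyte excess of miR-802-5p kept its sign under each alternative that gave it a value, and its call under each but 1. With the background measured beside each spot subtracted, the difference was 2.28 (adjusted p = 0.168 in limma). Because it had to differ, its sign and calls under the alternatives are not separate support either.

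The other arm, miR-802-3p, was dim in both cell types. Its spot stood 12.8 and 15.6 units above the blanks in hepatocytes, against 5.46 and 6.76 units in LSECs. The groups did not overlap, but LSEC array 1 was 4.73 blank SDs above the blanks and so fell short of a stricter limit of 5 SD. Scaled levels were 30.9 and 24.4 in hepatocytes, against 8.5 and 9.5 in LSECs, 3.07 times as high in hepatocytes by the means. The normalized difference was 0.31 ± 0.07 (adjusted p = 0.0321 in limma). In the authors' values it was 1.61 (adjusted p = 0.00108). The call on normalized values was lost with either LSEC array left out (adjusted p = 0.248 without array 1 and 0.206 without array 2), and likewise without normalization (0.279) and with spike scaling (0.633). The 5p arm of miR-802 was thus below detection in LSECs, while the 3p arm was detected there at a low level.

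miR-378a-3p, the arm of the family with the better known metabolic role, was present in both cell types at a higher scaled level in hepatocytes. The spot stood 235.6 and 407.9 units above the blanks in hepatocytes, against 207.9 and 200.1 units in LSECs. Before any scaling the groups were therefore separate by a narrow margin, and the hepatocyte arrays differed from each other by more than hepatocyte array 1 differed from LSECs. Scaled levels were 567.1 and 637.1 in hepatocytes, against 323.1 and 282.3 in LSECs, or 602.1 ± 49.5 and 302.7 ± 28.9 (SD, n = 2 each). The hepatocyte level was 1.99 times the LSEC level by these means. The normalized difference was 1.92 ± 0.06 (adjusted p = 0.000142 in limma), against 0.99 ± 0.18 in the authors' values (adjusted p = 0.005). The call was lost without normalization, where the difference was 0.51 (adjusted p = 0.115), and the sign turned under spike scaling, at -0.27 (adjusted p = 0.00385), and with the background beside each spot subtracted, at -0.46 (adjusted p = 0.761).

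miR-378b, the relative encoded on another chromosome, ran close to miR-378a-3p. It stood 196.3 and 292.4 units above the blanks in hepatocytes, against 155.5 and 142.0 units in LSECs. Scaled levels were 472.6 and 456.7 in hepatocytes, against 241.6 and 200.3 in LSECs, which do not overlap. The normalized difference was 1.79 ± 0.06 (adjusted p = 0.000155 in limma), and 1.08 in the authors' values (adjusted p = 0.00386); under spike scaling it was -0.19 (adjusted p = 0.055). Within each array the log2 ratio of miR-378a-3p to miR-378b, from which any scaling of the array cancels, was 0.26 and 0.48 in hepatocytes, against 0.42 and 0.50 in LSECs. These ranges overlap, so no difference between the cell types in the balance of these probes was seen. No mature sequence of miR-378b was available, so whether its probe also reads miR-378a-3p was not tested.

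miR-378a-5p, the other arm of the Ppargc1b hairpin, gave a dimmer spot. It stood 56.0 and 91.4 units above the blanks in hepatocytes, against 41.0 and 38.8 units in LSECs. Scaled levels were 134.9 and 142.8 in hepatocytes, against 63.7 and 54.7 in LSECs, without overlap. The normalized difference was 1.05 ± 0.05 (adjusted p = 0.000382 in limma), and 1.23 in the authors' values (adjusted p = 0.00199). It lay at 0.46 without normalization (adjusted p = 0.0749) and at -0.05 under spike scaling (adjusted p = 0.34).

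The antisense strand of the miR-378a locus is also on the array, and it was chosen for description after its values were seen. RefSeq places a second hairpin, Mir3557, on the plus strand at chr18:57128900-57129012, opposite Mir378. Its 5p arm is the reverse complement of miR-378a-3p over all 21 bases of miR-378a-3p, and its 3p arm spans exactly the 22 positions of miR-378a-5p. The mature sequences are shown because they are the antisense of those above, with the seed in capitals.
miR-3557-5p: gCCUUCUGacuccaaguccagu
miR-3557-3p: aCACAGGAccuggagucaggag
miR-3557-5p stood 2.74 and 2.73 units above the blanks in hepatocytes, below the detection limit on both arrays, and 7.93 and 8.66 units in LSECs, above it. miR-3557-3p was detected on all 4 arrays, at 7.98 and 14.2 units above the blanks in hepatocytes, against 15.1 and 16.3 units in LSECs. Neither arm of miR-3557 stood higher in hepatocytes than in LSECs before scaling, unlike the arms of miR-378a. Relative to the spikes the arms of miR-378a were not higher in hepatocytes either. miR-378a-3p then read 1.30 and 1.33% of the spike signal in hepatocytes, against 1.67 and 1.62% in LSECs. For miR-378a-5p it was 0.310 and 0.299% in hepatocytes, against 0.330 and 0.314% in LSECs. Scaling an array does not change the ratio of the strands within it, and that ratio was not tested.

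miR-33-5p, the arm that represses Abca1, was modest in brightness and higher in hepatocytes by scaled level. It stood 35.9 and 71.9 units above the blanks in hepatocytes, against 29.2 and 29.5 units in LSECs. Hepatocyte array 1 was close to the LSEC arrays, and hepatocyte array 2 was well above them. Scaled levels were 86.5 and 112.3 in hepatocytes, against 45.4 and 41.5 in LSECs, or 99.4 ± 18.2 and 43.5 ± 2.76 (SD, n = 2 each). The hepatocyte mean was 2.29 times the LSEC mean. The normalized difference was 0.88 ± 0.07 (adjusted p = 0.00151 in limma), and 1.18 in the authors' values (adjusted p = 0.00388). Without LSEC array 1 the call ended (adjusted p = 0.0511), as it did without normalization (0.176), and spike scaling gave -0.06 (0.301).

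For miR-33-3p, the other arm, the cell types were hard to separate. It stood 11.8 and 23.7 units above the blanks in hepatocytes, against 17.2 and 14.8 units in LSECs, so that the LSEC arrays lay between the hepatocyte arrays. Scaled levels were 28.3 and 37.1 in hepatocytes, against 26.7 and 20.9 in LSECs, which do not overlap. The normalized difference was 0.22 ± 0.05 (adjusted p = 0.0378 in limma), and 0.46 in the authors' values with no call (adjusted p = 0.128). Spike scaling turned it into a call for LSECs, at -0.21 (adjusted p = 0.0118). The hepatocyte call also ended without hepatocyte array 2 (adjusted p = 0.0717), LSEC array 1 (0.207) or LSEC array 2 (0.258), with median scaling (0.137), cyclic loess (0.0724) and no normalization (0.816).

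**Figure D1:**
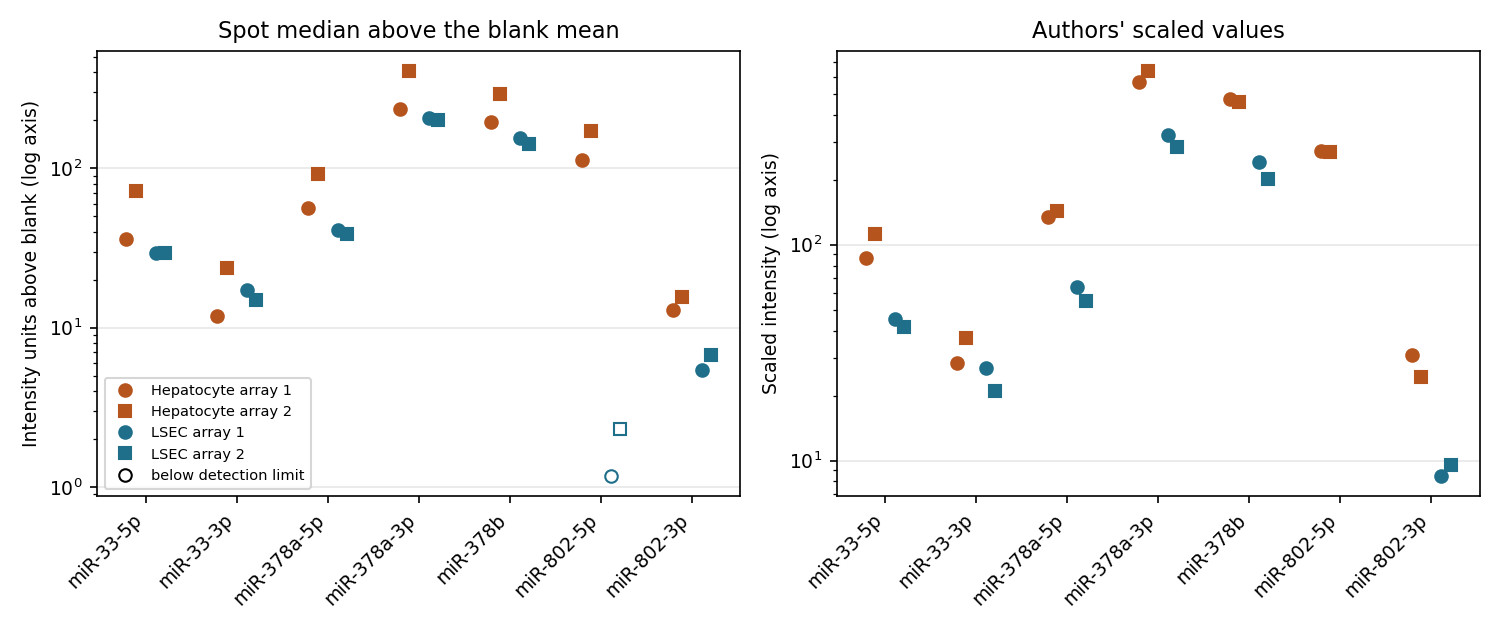
Each member's spot signal above the blank mean (left, intensity units) and the authors' scaled value (right), on log axes, for hepatocyte arrays (brown) and LSEC arrays (blue); circles are replicate 1, squares replicate 2, open symbols lie below the detection limit. miR-802-5p is open on both LSEC arrays and not listed there by the authors, and the LSEC points of miR-33-3p lie between the hepatocyte points on the left but below them on the right.

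All 7 members passed the filter on dim probes, which asked that both hepatocyte arrays or both LSEC arrays detect the miRNA. Of these, 6 were detected on all 4 arrays, and miR-802-5p passed through hepatocytes alone, so it had to differ. With quantile normalization all 7 were called higher in hepatocytes and none in LSECs, and all 7 had both hepatocyte arrays above both LSEC arrays. Over the 652 miRNAs tested, 18.4% were called higher in hepatocytes, 18.6% were called higher in LSECs, and 34.8% had both hepatocyte arrays above both LSEC arrays. The members' median difference was 1.05, against a median of 0.00 over all miRNAs tested, and the differences of the 6 members detected on all arrays stood between the 81.7 and 97.1 percentiles of all differences. With 2 arrays against 2, an exact permutation test of a single miRNA cannot give a two-sided p below 0.333, so the calls rest on the spread that limma pools over miRNAs. Quantile normalization gave miR-802-5p the same value on both hepatocyte arrays (SD 0), so its error holds no hepatocyte spread beyond what limma pools.

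How many members were called depended on how the arrays were put on 1 scale. The count higher in hepatocytes was 6 with median scaling, 7 with the 75th percentile and 6 with cyclic loess. It was 2 without normalization (miR-378b and miR-802-5p) and 5 of the 6 with a value in the authors' table. miR-802-5p, which had to differ, is in each of these counts except the last. Among all 652 miRNAs tested, 108 were called higher in hepatocytes with median scaling and 308 with the 75th percentile. That number was 112 with cyclic loess, 27 without normalization and 111 of 482 in the authors' values. Scaling by the spike control spots left only miR-802-5p higher in hepatocytes and called 2, miR-378a-3p and miR-33-3p, higher in LSECs. Of all 652 miRNAs, that scaling called 21 higher in hepatocytes and 435 higher in LSECs, so an LSEC call was not particular to these members. Subtracting the background beside each spot left 0 members called, with 6 of 7 differences above 0 and 21 of 652 miRNAs called in limma. Spike spots averaged 18098 and 30556 units over blank on the hepatocyte arrays, against 12417 and 12327 units on the LSEC arrays. Spike scaling moved the median of all miRNAs to -0.27, the authors' values moved it to -0.28 and the 75th percentile to 0.15. Relative to that median, the 6 members detected on all arrays stood between 0.00 and 0.30 under spike scaling, with miR-378a-3p at 0.00, miR-378b at 0.08, miR-378a-5p at 0.22, miR-33-5p at 0.21 and miR-802-3p at 0.30. miR-378a-3p was thus at the middle of all miRNAs by the spikes and at their 97.1 percentile by quantile normalization. The share of all calls that were higher in hepatocytes moved as well, at 49.8% with quantile normalization, 32.8% with the median, 69.2% with the 75th percentile, 15.3% without normalization, 4.61% with the spikes and 36.2% in the authors' values.

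**Figure D2:**
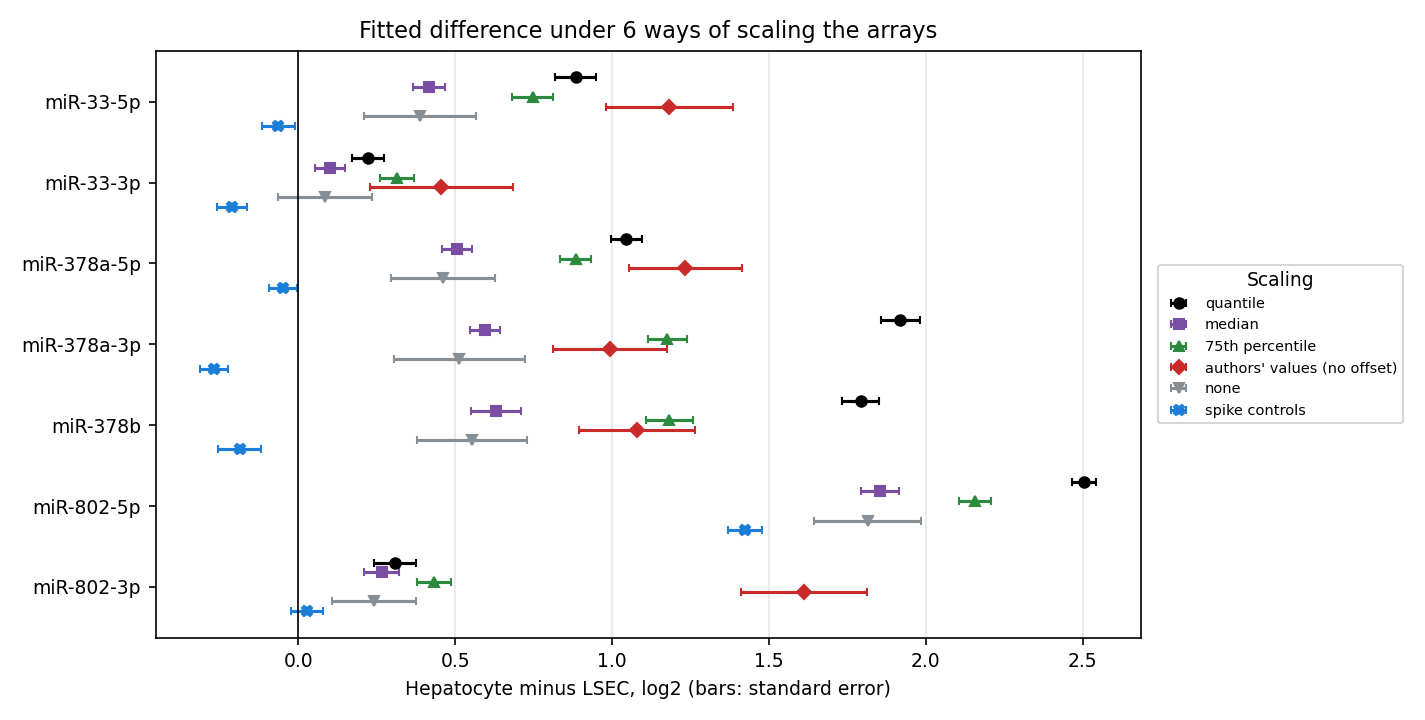
Fitted hepatocyte minus LSEC difference (log2) of each member under 6 scalings of the arrays; points are estimates and bars standard errors. miR-802-5p stays between 1.42 and 2.51 under the 5 scalings that gave it a value, miR-802-3p stays above 0, and the other 5 members lie above 0 except under spike control scaling, where they lie between -0.27 and -0.05.

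Ratios between members within an array do not depend on its scaling, and they show which members differed by unequal amounts. The log2 ratio of miR-33-5p to miR-33-3p, taken from signals above the blanks, was 1.61 and 1.60 in hepatocytes, against 0.77 and 0.99 in LSECs. By signals above the blanks, hepatocytes thus held relatively more of the 5p arm, with close replicates and no overlap. In the normalized values the 5p minus 3p difference of miR-33 was 0.66 ± 0.08 larger in hepatocytes (adjusted p = 0.000918 in limma over 213 hairpins). It was 0.73 in the authors' values (adjusted p = 0.0407 in limma), which repeats the ratio above the blanks because 1 factor per array cancels. The call ended under 3 alternatives, among them no normalization (0.30, adjusted p = 0.0669) and spike scaling (0.15, adjusted p = 0.113). The highest adjusted p in limma over the alternatives was 0.602. Of the 213 hairpins, 54.5% were called for a difference in arm balance, in either direction, so the miR-33 call was one of a majority.

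For miR-378a the arms gave opposite answers by method. The log2 ratio of 5p to 3p signals above the blanks was -2.07 and -2.16 in hepatocytes, against -2.34 and -2.37 in LSECs, a difference of 0.24 toward the 5p arm in hepatocytes. The normalized values gave -0.87 ± 0.09, toward the 3p arm in hepatocytes (adjusted p = 0.000514 in limma). The normalized values have 50 units added and are quantile-normalized, so the scaling of an array does not cancel from them. The authors' values gave 0.24 with no call (adjusted p = 0.376), which repeats the ratio above the blanks because 1 factor per array cancels. Spike scaling gave 0.22 (adjusted p = 0.0286). The ratio above the blanks thus leaned to the 5p arm in hepatocytes without overlap, but it was not called in the authors' values. No firm direction is given for the arms of miR-378a. For miR-802 the normalized difference was 2.20 ± 0.09 toward the 5p arm in hepatocytes (adjusted p = 1.21e-05 in limma), and since miR-802-5p was not detected in LSECs its size has only a bound. miR-802-5p was tested through hepatocytes alone, so this p is not separate support for an arm difference. The log2 ratio of miR-33-5p to miR-378a-3p was -2.71 and -2.50 in hepatocytes, against -2.83 and -2.76 in LSECs, separate by a small step, and that of miR-33-5p to miR-378a-5p overlapped, at -0.64 and -0.35 in hepatocytes, against -0.49 and -0.40 in LSECs. For the 5p arms of miR-33 and miR-378a, no difference in proportion between the cell types was seen.

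**Figure D3:**
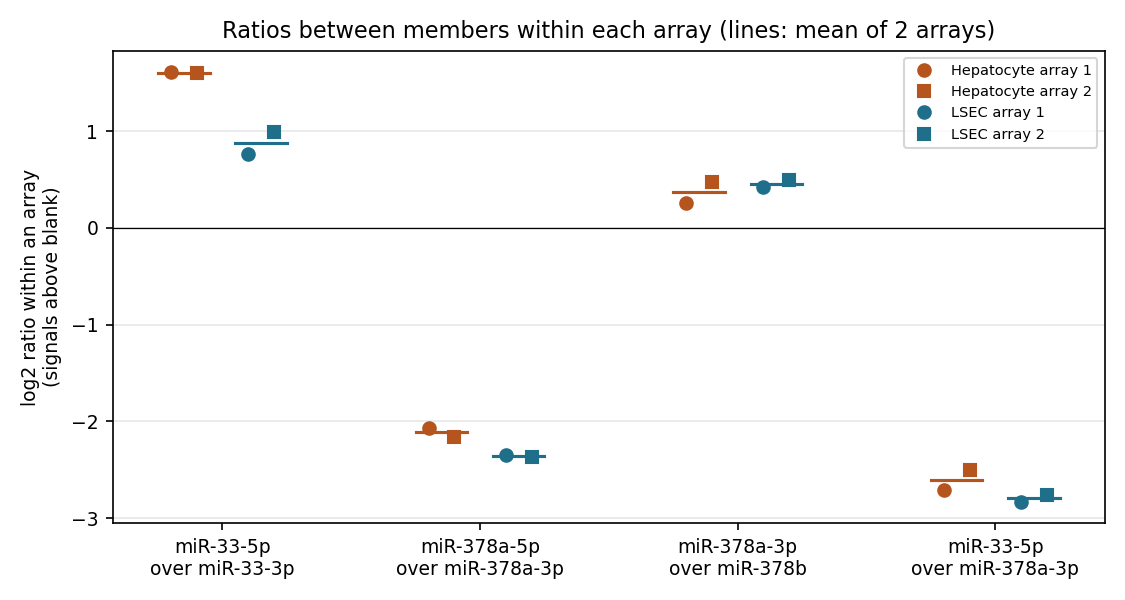
Log2 ratio between member signals above the blanks within each array, for hepatocyte arrays (brown, left of each pair) and LSEC arrays (blue); short lines are means of 2 arrays. The ratio of miR-33-5p to miR-33-3p is 1.60 to 1.61 in hepatocytes, against 0.77 to 0.99 in LSECs, while that of miR-378a-3p to miR-378b overlaps.

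The levels in LSECs can be set against those of hepatocyte marker miRNAs in the same samples. By the means of scaled levels, LSECs held miR-122-5p at 0.252% of its hepatocyte level, miR-122-3p at 0.421%, miR-192-5p at 0.865% and miR-194-5p at 0.667%. LSECs held the miR-378 probes at 42.6 to 50.3% of their hepatocyte level, miR-33-5p at 43.7%, miR-33-3p at 72.8% and miR-802-3p at 32.5%. Relative to the spikes the LSEC shares were higher, at 106 to 125% of the hepatocyte level for the miR-378 probes, 109% for miR-33-5p, 181% for miR-33-3p and 80.9% for miR-802-3p, against 0.622 to 2.17% for the 4 hepatocyte markers. On either scale these 6 members stood in LSECs at a larger share of the hepatocyte level than the 4 hepatocyte markers did, and miR-802-5p was not listed there. The markers were listed as hepatocyte miRNAs, so this sets the members apart from them only, not from other miRNAs. In the authors' values the median difference of all miRNAs tested was -0.28, toward LSECs.

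By root mean square distance between normalized log2 profiles over the 4 arrays, each centred on its mean, the miRNAs closest to miR-33-5p were miR-125b-1-3p (distance 0.013), miR-505-5p (0.045) and miR-6332 (0.054). Those closest to miR-378a-3p were miR-375-5p (0.059), miR-31a-3p (0.077) and miR-295-5p (0.100). Those closest to miR-802-5p were miR-193a-3p (0.086), miR-1188-3p (0.094) and miR-125a-3p (0.112). With 4 arrays in a pair of cell types, this likeness says little more than that the difference was of similar size. For miR-6332 the likeness did not extend to the authors' values, where it read 458.8 and 568.3 in hepatocytes, against 590 and 575.1 in LSECs, without a hepatocyte excess.

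A wider list of miRNAs with known roles in cholesterol, lipid or glucose metabolism was also read. Of 24 listed, 22 were tested, 4 were called higher in hepatocytes, 10 were called higher in LSECs and 8 were not called. These were 18.2% of the 22 higher in hepatocytes and 45.5% higher in LSECs, against 18.4% and 18.6% of all miRNAs tested, so the hepatocyte share was near that of all miRNAs. Their median difference was -0.23, against 0.00 over all miRNAs tested. On the hepatocyte side stood miR-122-5p at 8.25 ± 0.10, miR-148a-3p, which represses the LDL receptor, at 4.21 ± 0.05, miR-96-5p at 0.64 ± 0.07 and miR-29c-3p at 0.63 ± 0.14. The call of miR-96-5p ended without hepatocyte array 1 (adjusted p = 0.0502) or 2 (0.0501). miR-29c-3p has no settled direction, since its scaled levels were 1113 and 978.1 in hepatocytes, against 1624 and 1724 in LSECs, and the authors' values gave -0.68 (adjusted p = 0.0182). On the LSEC side stood miR-10b-5p at -2.60 ± 0.07, miR-27a-3p, a repressor of lipid genes, at -2.41 ± 0.07, miR-29b-3p at -2.17 ± 0.19 and miR-143-3p, linked in mice to impaired insulin signalling, at -1.90 ± 0.20. The call of miR-29b-3p ended without LSEC array 1 (adjusted p = 0.0562) or 2 (0.0508), that of miR-143-3p ended without hepatocyte array 1 (0.0600) or 2 (0.0586), and both ended with the background beside each spot subtracted (0.241 for miR-29b-3p and 0.479 for miR-143-3p). miR-143-3p is also among the stellate and mesenchymal markers given above, and miR-223-3p, called higher in LSECs too, is among the leukocyte markers.

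**Figure D4:**
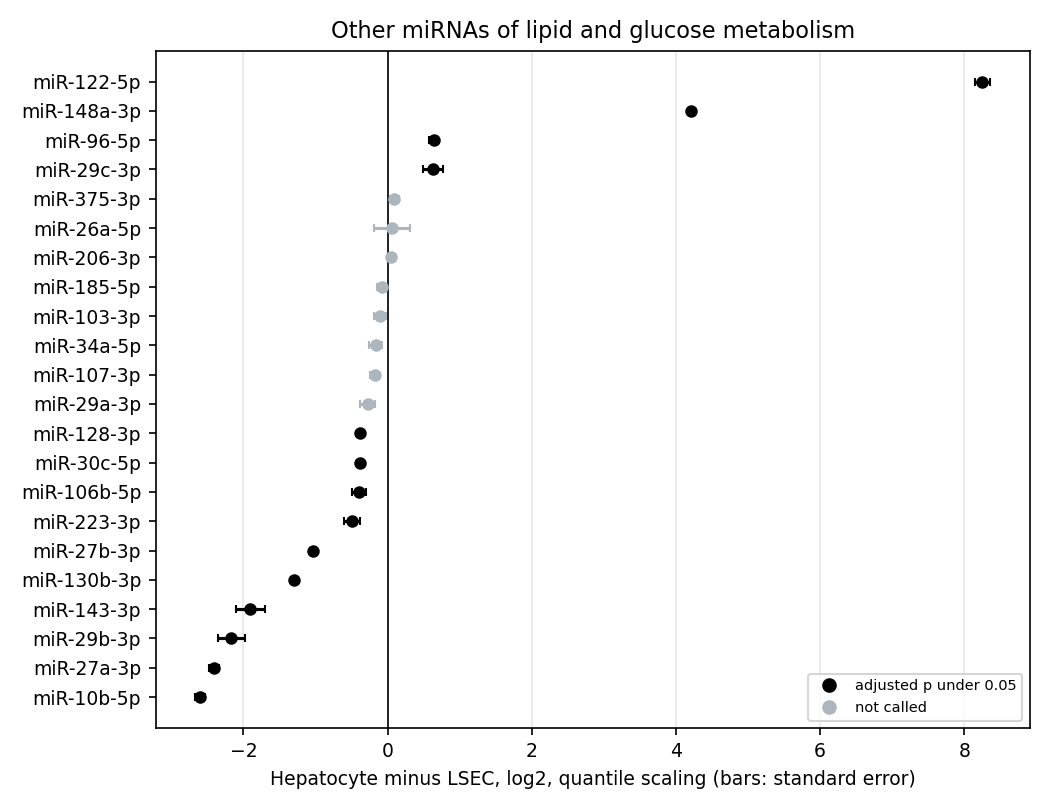
Hepatocyte minus LSEC difference (log2, quantile scaling) for the 22 tested miRNAs of the wider metabolic list, with standard errors; black points have an adjusted p under 0.05 in limma and grey points do not. Most black points lie on the LSEC side (10 of 14), while miR-122-5p and miR-148a-3p stand far out on the hepatocyte side; miR-29c-3p, drawn on the hepatocyte side, turns to the LSEC side under median, 75th percentile and spike scaling, without normalization and in the authors' values.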

How the data were processed

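Cy5-labelled total RNA was hybridised to 1 Toray 3D-Gene rat miRNA array per sample, per the labels. The deposited scanner tables give spot median intensity, with 3 gains merged by a fitted line and background left in, per the file headers. A second deposited table holds intensity after the authors' own processing. It equalled the spot median minus the trimmed blank mean, times 1 factor per array that set the listed median at 25 (ratio CV 0.029 to 0.044% for spots over 20 units above blank), so it is linear and uncentred by miRNA.

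Blank statistics leave out the top and bottom 5% of blank spots. Background was corrected by normexp over all spots with an offset of 50, and miRNA probes were quantile-normalized and tested with limma 3.58.1 (R 4.3.3), hepatocyte minus LSEC, with Benjamini-Hochberg over 652 miRNAs. A call is an adjusted p under 0.05. The number of arrays limits the precision.

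Named miRNAs are the members, both arms of miR-122 and miR-126a, up to 4 called miRNAs per direction of the metabolic list, the 3 nearest profiles to 3 members, and sharers of a seed; miR-3557 was added after its values were seen. Members and lists were chosen with earlier results of these data known. Alternatives changed background, offset, scaling, filter, limma options, replicate block and each array in turn.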

Additional observations from a re-analysis of the deposited data

How the results depend on the processing

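Of the 7 members, miR-802-5p and miR-802-3p kept their sign under each alternative that gave them a value. For miR-802-5p, tested through hepatocytes alone, this is not separate support. The other 5 kept their sign except under spike scaling and, for miR-378a-3p, with the deposited background column subtracted. Under spike scaling the reversed differences were -0.065 for miR-33-5p, -0.21 for miR-33-3p, -0.050 for miR-378a-5p, -0.27 for miR-378a-3p, -0.19 for miR-378b, -1.86 for miR-29c-3p, -0.17 for miR-505-5p and -1.28 for miR-6332, and the arm difference of miR-378a was 0.22. Subtracting the background column gave -0.46 for miR-378a-3p, -0.28 for miR-122-3p and 0.86 for the arms of miR-378a. The authors' values gave -0.68 for miR-29c-3p, -0.19 for miR-6332 and 0.24 for the arms of miR-378a. Median scaling gave -0.89 for miR-29c-3p and -0.39 for miR-6332, the 75th percentile gave -0.24 for miR-29c-3p, and no normalization gave -0.99 for miR-29c-3p and -0.47 for miR-6332. Members called higher in hepatocytes numbered 2 without normalization, 1 under spike scaling and 0 with the background column subtracted (limma; no member had a call, and 81 of 652 miRNAs had an unadjusted p under 0.05), and 4 to 7 without any 1 array (4 without LSEC array 1). All calls in limma numbered 241, against 445 with the 75th percentile, 456 with the spikes and 21 with the background column subtracted, and 109 to 234 without any 1 array (109 and 116 without LSEC arrays 1 and 2). Hairpins called numbered 116, against 13 with the background column subtracted and 74 in the authors' values, where 131 could be tested. The causes were not tested beyond the smaller number of hairpins. With the replicate number as a block, 5 members were called and the calls of miR-33-3p (adjusted p = 0.0886) and miR-802-3p (0.0609) ended. By the labels the samples share only a number, and shared animals are not stated. Deviations of hepatocyte array 1 and LSEC array 1 from their group means correlated with r = 0.034 across 652 miRNAs. With 2 arrays per cell type, this cannot settle whether both cell types came from the same animals. Dim signal limits miR-33-3p, miR-802-3p and miR-802-5p in LSECs.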
